A study of Saccharomyces cerevisiae with 18 samples.

Results

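Wild-type (WT) budding yeast mRNAs were compared between heavy polysomes and the total extract of the same cultures. The genes described are those with a mean of at least 5 CPM (reads on genes, brought to a common library sum) in the 2 WT total extracts, which was 5497 of the 7126 genes in the table. Of these, 5372 were protein coding in the reference annotation. The rule used only the level in total extract, and the heavy polysome libraries played no part in it. Just outside the rule lay PDR18, at 4.68 and 5.13 CPM in the total extracts, and just inside it lay HPA2, at 4.94 and 5.09 CPM. The rule also left out 5 genes with a mean of at least 5 CPM in the heavy libraries, namely CYC7, RDN5-1, YML009W-B, YNL097C-B and YHR050W-A.

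The WT strain is of the BY background and is listed in the study's strain table as MATa with deletions at HIS3, LEU2, LYS2 and URA3. It was grown to log phase at 30 °C, and the labels name both Yc medium and a synthetic minimal medium. Each of 2 cultures gave a total extract library, a light library (ribosomal subunits and monosomes) and a heavy library (mRNAs bound by 4 or more ribosomes), all enriched for poly(A) RNA. The fraction between them, with fewer ribosomes than the heavy one, is not analysed here. The strains R28P-30A and R28P-30B were sequenced in the same way. They are of the same background and carry a plasmid copy of RPL7A or RPL7B behind the RPS28A promoter, which by design is their only source of uL30, the 60S protein that both genes encode. They entered the fit for its estimate of spread and are shown only beside the WT values. The libraries labelled R28P-30A held 8 URA3 reads in the 4 libraries of the fit, against 29456 in those of R28P-30B, and kept RPL7B at 201 to 217 CPM in total extract, which goes against that label, so they are named by their label throughout. Total RNA came from phenol extraction of whole cells and polysome RNA from a clarified detergent lysate run on a sucrose gradient, so the effect of the fraction and that of the preparation cannot be told apart.

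An mRNA in a translating cell is read by several ribosomes at once, and the number it carries rises with the rate of initiation and with the time a ribosome needs to reach the stop codon. In a sucrose gradient mRNAs with many ribosomes sediment fastest, and free mRNAs, single ribosomes and subunits stay near the top. The ratio of an mRNA in heavy polysomes to its level in total extract therefore describes how much of its pool carries many ribosomes. Short open reading frames (ORFs) have room for few ribosomes, and non-coding RNAs are not read by them at all. Yeast is known for the close packing of ribosomes on the mRNAs of glycolytic enzymes and for GCN4 and HAC1, whose translation is held back in unstressed cells.

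The sequences below were read from the R64 reference genome (RefSeq annotation) and belong to some of the genes described further on. RPL41A and RPL41B, which encode the smallest ribosomal protein, have coding sequences of 78 nt on chromosome IV (chrIV:130407-130484 and chrIV:221724-221801, minus strand). They differ at 1 base, in capitals.
RPL41A: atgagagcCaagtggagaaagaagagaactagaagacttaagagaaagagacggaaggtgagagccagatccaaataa
RPL41B: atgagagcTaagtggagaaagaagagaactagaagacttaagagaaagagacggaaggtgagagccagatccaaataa

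Upstream of GCN4 on chromosome V lie the short ORFs known to regulate its translation. Within 600 bases before its start codon 4 ORFs of at most 30 nt were found. Their start and stop codons are in capitals, and they begin 361, 293, 176 and 151 bases before the GCN4 start codon (chrV:140113-140124, chrV:140048-140056, chrV:139928-139939 and chrV:139903-139914, minus strand).
GCN4 upstream ORF 1: ATGgcttgcTAA
GCN4 upstream ORF 2: ATGtgtTAA
GCN4 upstream ORF 3: ATGtacccgTAG
GCN4 upstream ORF 4: ATGtttccgTAA

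The bases around the start codon are shown for the 3 named genes that rose most and for 3 that fell, each with 12 bases before and 3 after the start codon, and with the start codon and the base at -3 in capitals. PST2, TPI1, RPS29A and HAC1 have A at -3, and GSP2 and COX14 have G there.
PST2 (chrIV:504690-504707, minus strand): caattatatAcaATGcca
TPI1 (chrIV:556467-556484, minus strand): cataaactaAaaATGgct
GSP2 (chrXV:682101-682118, minus strand): tataagttcGtaATGtca
RPS29A (chrXII:898639-898656, plus strand): attgcagatAaaATGgct
COX14 (chrXIII:14748-14765, minus strand): acgcagataGtcATGtcc
HAC1 (chrVI:75167-75184, plus strand): acaaccgccActATGgaa

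The 4 WT libraries compared held 20677312 to 28640852 reads on genes. For each culture the log2 of (heavy CPM + 0.5) over (total CPM + 0.5) was taken, and the WT mean of 2 cultures was tested against 0 with limma, with Benjamini-Hochberg adjustment over all 5497 genes. The ratios of the 2 cultures followed each other across genes (Pearson r = 0.949, a description, since genes are not independent), and a gene differed between cultures by a median of 0.08 on the log2 scale. At an adjusted p under 0.05, 674 genes were higher in heavy polysomes (12.3% of those tested) and 2866 were lower (52.1%). With a 2-fold limit added, 4 were higher (0.0728%) and 287 lower (5.22%). The wide excess of lower genes depends on the scale. CPM has the same sum in each library, abundant mRNAs took a larger share of the heavy libraries than of total, and the median gene lay at -0.20. Centred on the median gene, 1552 genes were higher (28.2%) and 1652 lower (30.1%), and no gene called lower on the CPM scale was then called higher. Ratios below are on the CPM scale and are to be read against that median of -0.20, and counts once centred are given for most gene lists. All 674 higher and all 2866 lower genes had the same sign in both WT cultures. How many of all genes had no overlap between heavy and total libraries was not counted, so a lack of overlap sets no gene apart.

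**Figure D1:**
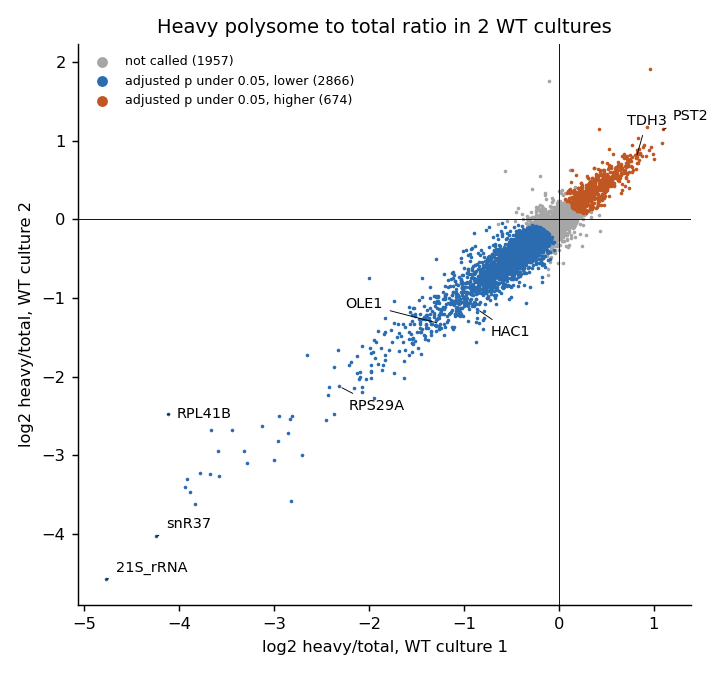
Each point is one of 5497 genes, plotted by its log2 heavy/total ratio in WT culture 1 (x axis) and WT culture 2 (y axis), with colours for the limma call. The points run along the diagonal from 21S_rRNA at -4.67 to YDR154C at 1.43 (means of 2 cultures), with PST2 at 1.12, and RPL41B stands off it.

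Short mRNAs lay furthest below their total level. RPL41B was at 544 and 211 CPM in total extract and at 30.7 and 37.5 CPM in heavy polysomes. Its log2 ratio of -3.30 ± 0.29 (SE, n = 2 cultures, adjusted p = 1.23e-06, limma) was the lowest of any nuclear coding gene. The 2 cultures gave -4.12 and -2.48, wider apart than that SE, which draws on other strains and genes. The total level of RPL41B differed more between the cultures than its heavy level. RPL41A was at 685 and 548 CPM in total and 127 and 124 CPM in heavy libraries (-2.28 ± 0.15, adjusted p = 2.08e-07). For both genes the heavy libraries lay below both total extracts, and the light libraries held 1529 to 1548 CPM of RPL41B and 2648 to 2802 CPM of RPL41A, far above total. Reads that map to several places were counted at each, and with 1 differing coding base these genes share reads within their ORFs.

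Other small ribosomal proteins followed. RPS29A, a 40S protein encoded by 171 nt, fell from 499 and 415 CPM in total extract to 99.5 and 95.2 CPM (-2.22 ± 0.08, adjusted p = 1.19e-09). RPS30B (-2.07), RPL39 (-2.04), RPL29 (-2.00) and RPS30A (-1.95) also fell at least 3-fold, at coding lengths of 156 to 192 nt. For each of these genes both heavy libraries lay below both total extracts, and all 5 were higher in the light libraries than in total, by 1.03 to 1.45 on the log2 scale. The same was seen for small proteins of mitochondria: COX14, a cytochrome c oxidase assembly factor, was at 48.9 and 47.4 CPM in total and at 11.2 and 9.95 CPM in heavy libraries (-2.14 ± 0.10, adjusted p = 2.11e-08). TOM5, a subunit of the outer membrane import pore (-1.96), and MRPL39, a mitochondrial ribosomal protein (-1.89), completed the short ORFs among the 12 lowest. These 12 were taken only from genes with a mean of at least 20 CPM in total extract and a gene name other than the identifier. Longer were POP6, a subunit of RNase P and RNase MRP (477 nt, -2.03), and RRT5 (870 nt). RRT5 fell from 24.7 and 20.8 CPM to 5.42 and 4.82 CPM (-2.05 ± 0.11, adjusted p = 5.56e-08, limma). It lies just downstream of RPL29 on the same strand, and RPL29 was at 589 and 440 CPM in total extract. The light ratios of RRT5 and RPL29 were 1.21 and 1.13. Whether reads on RRT5 come from RPL29 transcripts was not tested.

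**Figure D2:**
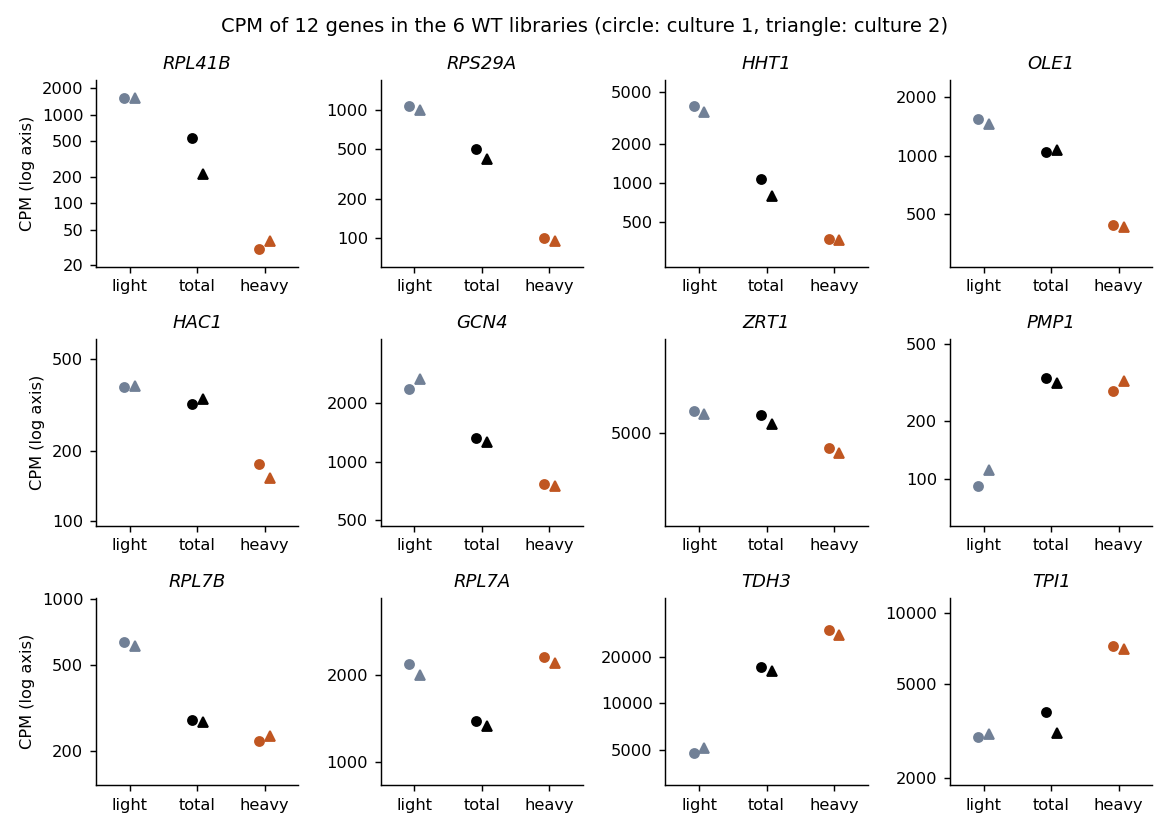
CPM on a log axis of 12 genes in the light, total and heavy libraries of WT culture 1 (circles) and culture 2 (triangles). RPL41B, RPS29A, HHT1, OLE1, HAC1 and GCN4 are lowest in heavy polysomes, TDH3 and TPI1 are highest there, and PMP1 is lowest in the light fraction.

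Over all coding genes the ratio rose with coding length up to 600 nt and changed little beyond. The 175 genes under 300 nt had a median of -1.02, with 156 lower, 0 higher and 90 lower by 2-fold (51.4%, against 5.22% of all genes). The 699 genes of 300 to under 600 nt had a median of -0.35, with 93 higher (13.3%) and 424 lower (60.7%). Over all genes 12.3% were higher and 52.1% lower. From 600 to under 1200 nt the median of 1658 genes was -0.19, and 22.4% were higher on the CPM scale. It stayed at -0.19 for 1200 to under 2400 nt, and was -0.12 for 2400 to under 3600 nt and -0.09 for the 273 genes of 3600 nt and over, where no gene fell by 2-fold. Centred on the median gene, 141 of the 175 shortest genes were lower and 3 higher, and 110 of the 273 longest were higher and 13 lower. The slope of the log2 ratio on log2 coding length was 0.433 and 0.382 in the 2 WT cultures for the 1702 genes under 900 nt, and 0.047 and 0.035 for the 3670 longer ones. In the other 4 cultures it was 0.357 to 0.434 for the shorter genes. Without ribosomal protein genes the genes under 300 nt (156 genes) had a median of -0.96.

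**Figure D3:**
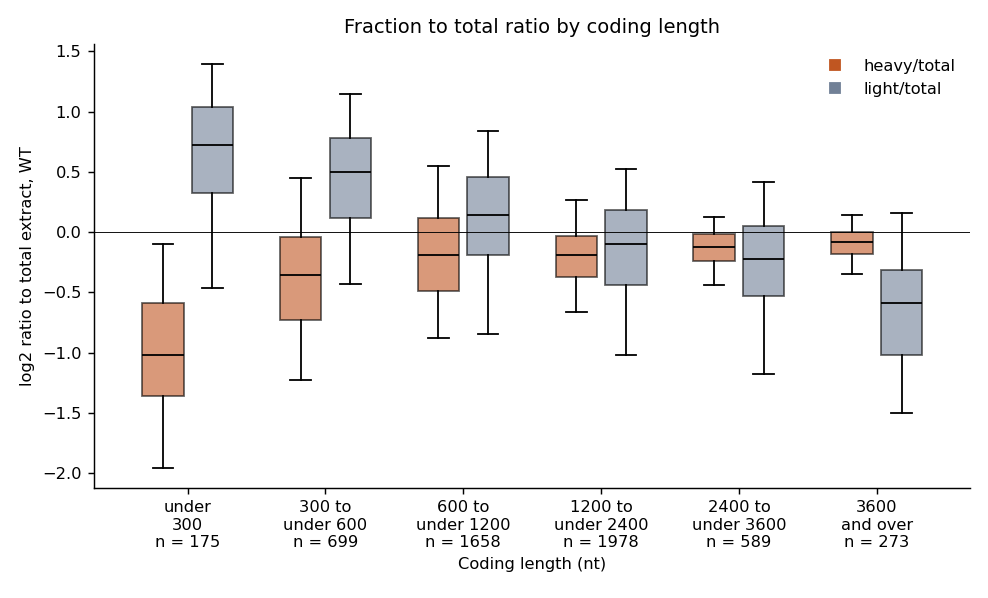
Log2 ratios of heavy to total and of light to total in WT for coding genes in 6 bins of coding length (boxes, quartiles with the median; whiskers, 5th and 95th percentiles). The heavy ratio rises from a median of -1.02 under 300 nt to -0.09 at 3600 nt and over, and the light ratio falls from 0.72 to -0.59.

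The light ratio ran the other way along the whole range of lengths. The medians of light over total were 0.72, 0.50, 0.15, -0.10, -0.22 and -0.59 from the shortest bin to the longest. Over all genes 2162 were higher in the light fraction (39.3%) and 2029 lower (36.9%). The light and heavy ratios share the total extracts, so they are given side by side and their likeness was not tested. Neither fraction held as much as total for MDN1, the longest of the very long ORFs listed. This gene, a giant ATPase of 60S assembly (14733 nt), was at 446 and 462 CPM in total, 305 and 329 CPM in heavy and 156 and 189 CPM in light libraries (heavy -0.52 ± 0.06, adjusted p = 1.66e-05). Of 15 very long ORFs 10 were lower in heavy polysomes (66.7%, against 52.1% of all genes) and none higher. Their median was -0.31, and IRA2, an inhibitor of Ras, was the highest at 0.07. Centred, 4 were lower and 1 higher, so this direction rests on the scale for most of them.

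Not every short ORF was kept out. PMP1 and PMP2, small proteolipids that associate with the plasma membrane proton pump, are encoded by 123 and 132 nt (chosen after their values were seen). PMP1 was at 333 and 316 CPM in total extract and at 287 and 321 CPM in heavy libraries, and PMP2 at 275 and 246 CPM and at 212 and 248 CPM. The groups overlapped for both genes, with log2 ratios of -0.09 (adjusted p = 0.478) and -0.18 (adjusted p = 0.166, limma). Their light ratios were -1.67 and -1.07, where the median of genes under 300 nt was 0.72. CWP2, a mannoprotein of the cell wall (279 nt) and one of the 5 most abundant lower mRNAs, was at 5361 and 5422 CPM in total and 4463 and 4252 CPM in heavy libraries (-0.31). Among 25 genes listed for very small proteins 22 were lower (88.0%, against 52.1% of all genes) and 1 higher, with a median of -1.09. The counts were the same once centred. The higher one, the Hsp90 co-chaperone SBA1 (0.72), is not a short ORF, at 651 nt.

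Few genes were higher by 2-fold. PST2, a flavodoxin-like protein, was at 292 and 274 CPM in total extract and at 625 and 607 CPM in heavy polysomes (1.12 ± 0.06, adjusted p = 3.43e-08). TPI1, triosephosphate isomerase, rose from 3807 and 3100 CPM to 7229 and 7015 CPM (1.05 ± 0.08, adjusted p = 7.37e-07). GSP2, a Ran GTPase, rose from 78.1 and 82.5 CPM to 166 and 163 CPM (1.03 ± 0.08, adjusted p = 3.73e-07). In all 3 genes both heavy libraries lay above both total extracts. The fourth gene past the 2-fold limit, YDR154C, has no entry in the reference annotation, and its heavy libraries differed (68.2 and 121 CPM, against 34.9 and 31.8 CPM in total). TPM1, a tropomyosin (0.95), YCP4, a flavodoxin-like protein (0.93), IPP1, the inorganic pyrophosphatase (0.92), and AHP1, a peroxiredoxin (0.91), lay just under the limit and were chosen after their values were seen.

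Glycolytic enzymes, among the most abundant proteins of the cell, were mostly higher. TDH3, a glyceraldehyde-3-phosphate dehydrogenase, was at 17050 and 16150 CPM in total, 29930 and 27700 CPM in heavy and 4721 and 5129 CPM in light libraries (heavy 0.80 ± 0.09, adjusted p = 8.48e-06). PGK1 (0.76), FBA1 (0.65), ENO2 (0.49), CDC19 (0.43) and PDC1 (0.27) were also higher, and TDH3, FBA1, ENO2, CDC19 and PDC1 were the most abundant mRNAs among all those that rose. Of 19 enzymes 12 were higher (63.2%) and 4 lower (21.1%), where 12.3% and 52.1% of all genes were. Their median was 0.39, against -0.20 over all genes, and PDC5, the minor pyruvate decarboxylase, was the lowest at -0.30. Centred, 15 were higher and none lower, beside 28.2% and 30.1% of all genes. The most abundant lower mRNAs besides CWP2 were PMA1, the plasma membrane proton pump (-0.28), ZRT1, a zinc transporter (-0.29), YEF3, the fungal elongation factor 3 (-0.24), and YDR524C-B (-1.35), which fell from 3932 and 3474 CPM to 1443 and 1450 CPM. PMA1, ZRT1, YEF3 and CWP2 were not called once centred (adjusted p = 0.515, 0.433, 0.706 and 0.375, limma).

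Within a range of coding lengths whose medians differed little, more abundant mRNAs had higher ratios. Coding genes of 600 to under 2400 nt were put in deciles of their CPM per kb of coding length in WT total extract. The median log2 ratio was -0.36 in the lowest decile (3 genes higher, 229 lower of 364) and 0.13 in the highest (174 higher, 95 lower of 364), and with these deciles it was higher in each than in the one before. The ratio and this level share the total extracts. With deciles set in the total extracts of R28P-30B instead, the lowest and highest medians were again -0.36 and 0.13, and the third decile (-0.30) lay below the second (-0.29).

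**Figure D4:**
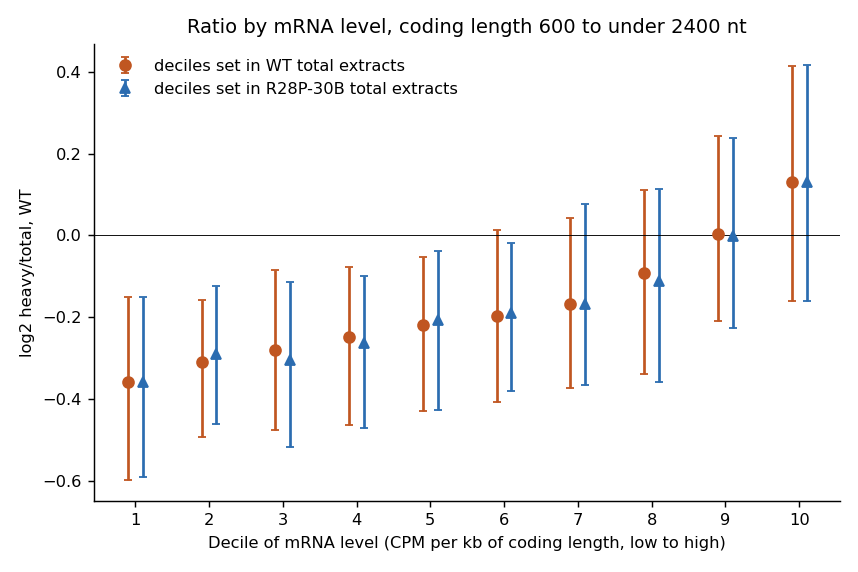
Median log2 heavy/total ratio in WT (points, with quartiles as bars) for coding genes of 600 to under 2400 nt in deciles of mRNA level per kb, set in WT (circles) or R28P-30B (triangles) total extracts. Both series start at -0.36 and end at 0.13, and the R28P-30B series dips from -0.29 to -0.30 at the third decile.

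Genes of the translation machinery were spread widely. For comparison with the counts below, 12.3% of all genes were higher and 52.1% lower, or 28.2% and 30.1% once centred. The 138 cytosolic ribosomal protein genes had a median of -0.11 with 41 higher and 59 lower (51 and 44 once centred), and their quartiles, -0.70 and 0.26, were wider apart than those of all genes, -0.44 and 0.00. They separated by length: the 19 under 300 nt were all lower (median -1.81; all 19 once centred), of the 86 from 300 to under 600 nt 12 were higher and 37 lower (21 and 24 once centred), and of the 33 of 600 nt and over 29 were higher and 3 lower (median 0.48; 30 and 1 once centred). In the light fraction 122 of the 138 were higher than in total, at a median of 0.68. Elongation factors had 6 of 11 higher and 2 lower (8 and 0 once centred), led by TEF2, the elongation factor 1A, at 2450 and 2186 CPM in total and 4180 and 4208 CPM in heavy libraries (0.86 ± 0.07, adjusted p = 8.67e-07). EFT2, elongation factor 2, was the lowest at -0.28. TEF2, EFT2 and TIF1, like GSP2 and HHT1, have near-identical copies that share reads with them, so their single values are uncertain. Initiation factors had 10 higher and 7 lower of 25 (13 and 2 once centred). They ran from SUI1, the start-site factor eIF1 (-0.67), to TIF1, the helicase eIF4A (0.78). The 21 tRNA synthetases had 4 higher and 4 lower (15 and 2 once centred), from ILS1 (-0.44) to GUS1 (0.30).

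Duplicated ribosomal protein genes could differ from each other. Of 59 pairs, 11 differed by more than 0.5 on the log2 scale and 57 kept the sign of the difference in both cultures, with a median absolute difference of 0.30. RPL7A, the main source of the 60S protein uL30, was at 1394 and 1336 CPM in total and 2310 and 2200 CPM in heavy libraries (0.72 ± 0.08, adjusted p = 6.96e-06). RPL7B, its paralog of the same coding length (735 nt), was at 278 and 272 CPM in total, 222 and 234 CPM in heavy and 635 and 609 CPM in light libraries (-0.27 ± 0.07, adjusted p = 0.00368). RPL7B lost its call once centred (adjusted p = 0.416), and the distance of 1.05 and 0.934 between the paralogs in the 2 cultures does not depend on the scale. The widest pairs were RPS9 (RPS9A -1.01, RPS9B 0.50), RPS14 (RPS14A -0.08, RPS14B -1.39) and RPL15 (RPL15A 0.62, RPL15B -0.54), chosen after their values were seen. RPS28A (-1.88) lay below RPS28B (-0.95), both at 204 nt. Reads that fit both copies were counted for both, so these distances include shared reads.

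**Figure D5:**
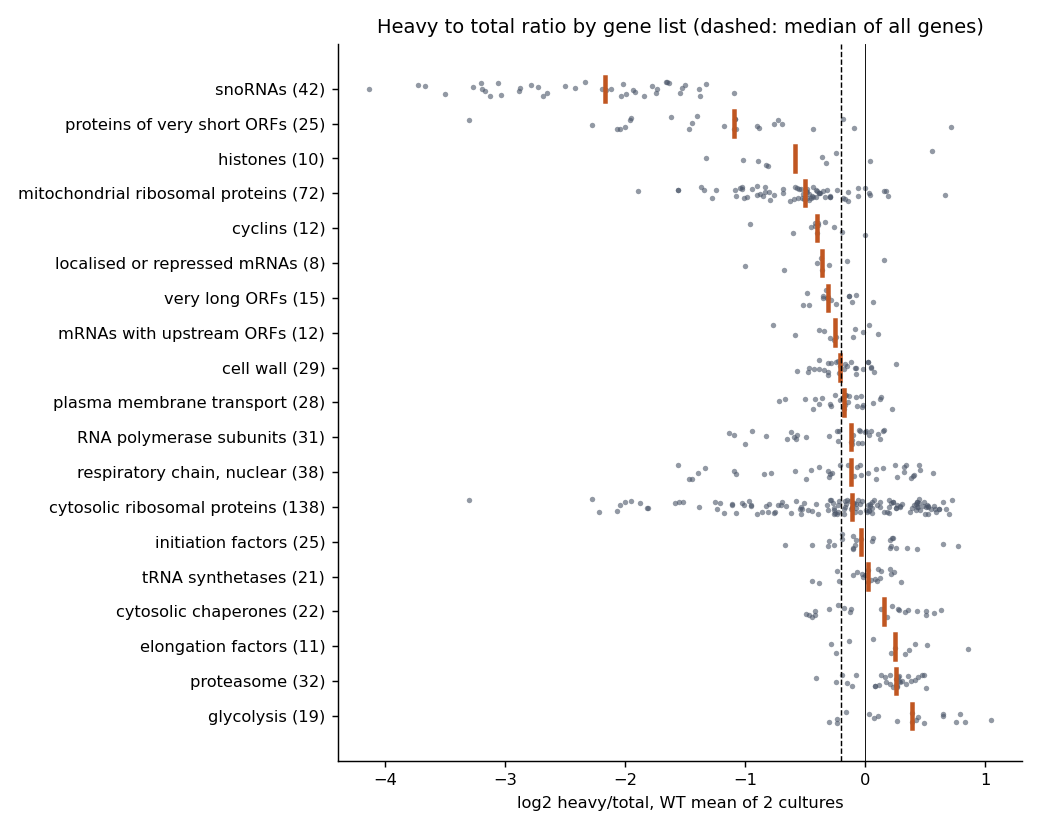
Log2 heavy/total ratio in WT of every member of 19 gene lists (dots) with the list's median (bar) and the median of all genes at -0.20 (dashed line). snoRNAs lie lowest, glycolytic enzymes and the proteasome highest, and ribosomal proteins span from -3.30 to 0.72.

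Of all genes 12.3% were higher and 52.1% lower, or 28.2% and 30.1% once centred, for comparison with the counts in this paragraph. The proteasome had 22 of 32 subunits higher (68.8%) and 3 lower (9.38%), with a median of 0.26, and 26 higher and 1 lower once centred. It ran from RPN2, a scaffold of the regulatory particle (-0.41), to PRE2, a catalytic subunit. PRE2 rose from 346 and 338 CPM to 495 and 477 CPM (0.51 ± 0.06, adjusted p = 1.99e-05, limma). Cytosolic chaperones had 11 higher and 8 lower of 22 (12 and 4 once centred), from HSP82 (-0.49) to the small heat shock protein HSP26 (0.63). Genes listed by name as mitochondrial ribosomal proteins were mostly lower, 61 of 72 with 3 higher (median -0.50). Once centred 53 were lower and 7 higher. MRP8, whose place on the list rests on its name alone, was the highest at 0.66. The nuclear-encoded respiratory chain was mixed, with 12 higher (31.6%) and 18 lower (47.4%) of 38, and 16 and 11 once centred. It ran from ATP15, a small subunit of the ATP synthase encoded by 189 nt (-1.56), to CYT1, cytochrome c1 (0.56). Of the histones 8 of 10 were lower and 1 higher, against 52.1% and 12.3% of all genes, and once centred 5 were lower and 2 higher. HHT1, a histone H3 gene, fell from 1058 and 785 CPM to 367 and 359 CPM while its light level was 3907 and 3497 CPM (heavy -1.33 ± 0.08, adjusted p = 1.16e-07), and the linker histone HHO1 was higher (0.56). RNA polymerase subunits had 15 of 31 lower and none higher on the CPM scale but 11 of each once centred, from RPA14 (-1.14), which overlaps another annotated ORF on its strand, to RPB4 (0.16).

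Proteins of the surface stayed near the median. Of all genes 52.1% were lower and 12.3% higher, or 30.1% and 28.2% once centred. Of 29 cell wall genes 16 were lower (55.2%) and 1 higher (4 and 6 once centred), from PIR3 (-0.57) to CIS3 (0.25). Of 28 plasma membrane transporters 17 were lower (60.7%) and 1 higher (6 and 7 once centred), from the copper transporter CTR1 (-0.72) to the glutamine permease GNP1 (0.22). For both lists the direction rests on the scale. Their light medians were -0.58 and -0.19. Of 26 Ty transposon ORFs 5 were higher and 5 lower (11 and 0 once centred), from YLR256W-A (-0.71) to YGR027W-B (0.71). Their copies share reads, so single members are uncertain.

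Of the 20 mRNAs listed for upstream ORFs, localisation or repression none was called higher on the CPM scale, where 12.3% of all genes were. GCN4, the activator of amino acid synthesis with the upstream ORFs printed above, was at 1314 and 1266 CPM in total, 770 and 748 CPM in heavy and 2352 and 2670 CPM in light libraries (heavy -0.77 ± 0.08, adjusted p = 7.99e-06). Of 12 mRNAs with known upstream ORFs 7 were lower (58.3%, against 52.1% of all genes), with a median of -0.25. Once centred 3 were lower and 3 higher, beside 30.1% and 28.2% of all genes. INO2, an activator of phospholipid genes (-0.58), and CPA1, of arginine synthesis (-0.39), kept a centred call with GCN4, and PPR1 (-0.35), CAD1 (-0.30), CLN3 (-0.26) and SCO1 (-0.24) did not. TIF4631 (-0.10), YAP1 (-0.09), SCH9 (-0.01), HOL1 (0.03) and LEU4 (0.10) did not pass the test on the CPM scale. Centred, SCH9, HOL1 and LEU4 were the 3 called higher.

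HAC1, whose unspliced mRNA is held from translation until the unfolded protein response, was at 321 and 336 CPM in total, 175 and 153 CPM in heavy and 380 and 381 CPM in light libraries (heavy -1.0 ± 0.08, adjusted p = 4.59e-07). ASH1, which is silent while it travels to the bud, was at 466 and 461 CPM in total and 295 and 286 CPM in heavy libraries (-0.67 ± 0.07, adjusted p = 3.02e-06). In both genes the heavy libraries lay below the total extracts. Other bud-localised mRNAs, CLB2 (-0.40), MID2 (-0.37), EAR1 (-0.36) and IST2 (-0.30), were lower too, and WSC2 (-0.15, adjusted p = 0.127) and SRL1 (0.15, adjusted p = 0.332) did not pass the test. MID2 and IST2 lost their calls once centred. Of the 8 mRNAs listed as localised or repressed 6 were lower, where 52.1% of all genes were. Their median was -0.36, against -0.20 over all genes. Once centred 4 of the 8 were lower, beside 30.1% of all genes. Whether this list of 8 differs from all genes was not tested. Of 12 cyclins 11 were lower (91.7%, against 52.1% of all genes), with a median of -0.40. Once centred 7 were lower, beside 30.1% of all genes. PCL1, a cyclin of Pho85, fell from 244 and 267 CPM to 135 and 127 CPM (-0.96 ± 0.07, adjusted p = 3.03e-07, limma). The G1 cyclin CLN2 was at 0.00 (adjusted p = 0.973) and was the 1 cyclin higher once centred.

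Some other mRNAs with low ratios were chosen after their values were seen. OLE1, the fatty acid desaturase (1533 nt), was at 1043 and 1067 CPM in total, 439 and 425 CPM in heavy and 1545 and 1460 CPM in light libraries (heavy -1.29 ± 0.06, adjusted p = 1.70e-08). OAZ1, the ornithine decarboxylase antizyme (-1.34), and EST3, a telomerase subunit (-1.56), are both made through a ribosomal frameshift, without which translation stops early. ABP140, another yeast frameshift gene, was higher (0.34 ± 0.07, adjusted p = 0.00112). DIA1 (-1.60), which an annotated ORF overlaps on the other strand, NCE103, a carbonic anhydrase (-1.38), RGS2, a regulator of G-protein signalling (-1.16), and HSP30, a stress protein of the plasma membrane (-1.16), were also lower by over 2-fold.

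Among the study's own reporter and model genes, GLT1, the glutamate synthase of 6438 nt, was at 300 and 310 CPM in total and 237 and 239 CPM in heavy libraries (-0.36 ± 0.06, adjusted p = 1.51e-04). EGD1, a subunit of the nascent-chain complex NAC (474 nt), rose from 557 and 502 CPM to 678 and 615 CPM (0.29 ± 0.07, adjusted p = 0.00386). OSH6, a lipid transfer protein (1347 nt), rose from 70.9 and 71.8 CPM to 82.7 and 84.3 CPM (0.23 ± 0.06, adjusted p = 0.00662). The groups did not overlap in any of these 3 genes, a trait that was not counted over all genes.

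Non-coding RNAs, which are not translated, lay furthest below total. All 42 snoRNAs tested were lower (median -2.17; all 42 once centred), from snR37, at 30.0 and 27.1 CPM in total and 1.11 and 1.19 CPM in heavy libraries (-4.14 ± 0.14, adjusted p = 1.19e-09), to snR46 (-1.09). In the light fraction 10 of the 42 were higher and 18 lower, where 39.3% and 36.9% of all genes were, and their light median was -0.22. LSR1, the U2 spliceosomal RNA, fell from 51.4 and 37.8 CPM to 2.998 and 2.968 CPM (-3.68 ± 0.12, adjusted p = 1.19e-09). SCR1, the signal recognition particle RNA (-3.45), RPR1, of RNase P (-3.61), and TLC1, of telomerase (-1.99), were also lower. These 3, and 21S_rRNA and SCEI below, were named after their values were seen. The light ratios of snR37, RPR1, SCR1 and LSR1 were -1.04, -0.91, -0.21 and -0.08, and that of TLC1 was 0.86. Whether the preparation has a part in these low heavy ratios was not tested. ICR1, a long non-coding RNA upstream of FLO11, was not called in heavy polysomes (-0.05, adjusted p = 0.641, limma), and it overlaps annotated genes on both strands. The lowest ratio of all was that of 21S_rRNA of the mitochondrial ribosome, at 35.6 and 23.9 CPM in total, 0.822 and 0.524 CPM in heavy and 116 and 176 CPM in light libraries (heavy -4.67 ± 0.15, adjusted p = 1.19e-09). SCEI, the endonuclease encoded in its intron, was at -3.42, and its reads overlap those of 21S_rRNA. No mitochondrial mRNA for a respiratory chain subunit reached 5 CPM, the highest having a mean of 3.98 CPM in total extract.

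Sequence features around the start codon differed modestly between the classes. A was at -3 in 71.0% of the 670 coding genes called higher, 59.4% of the 2777 called lower and 61.5% of the 1925 not called, beside 61.6% of all coding genes. The median ratio was -0.18 with A at -3 and -0.21 without it. An ATG, searched on the coding strand in any frame, lay in the 100 bases before the start codon of 44.6% of higher, 52.4% of lower and 49.9% of all coding genes. Among the 60 genes of 600 nt and over that were lower by 2-fold it lay in 68.3%, against 49.1% of the 4498 coding genes of that length. These bases are genomic and were not matched to transcript starts. Genes whose coding region is annotated in several parts made up 16.9% of the genes lower by 2-fold and 5.06% of all coding genes. This class holds genes with introns and also frameshift genes such as OAZ1, EST3 and ABP140, so it is not a count of introns. They also made up 8.21% of the genes called higher, and at 600 nt and over they were 3.33% of the genes lower by 2-fold against 2.89% of all. The median heavy ratio of genes with a coding region in several parts was -0.23 and their light median 0.54. Without ribosomal protein genes the 182 others had medians of -0.25 and 0.33.

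The same measure in the other strains gave nearly the same order of genes. The ratio of WT correlated at 0.971 across genes with that of the libraries labelled R28P-30A and at 0.962 with that of R28P-30B, a description over 5497 genes in 2 cultures each that share no library. Of the 674 higher genes 663, and of the 2866 lower genes 2859, had the same sign in both. The share of all 5497 genes that did so was not counted. The medians of all genes were -0.23 and -0.24 in the 2 other strains, beside -0.20 in WT. A negative sign is thus common on this scale, and the count of 2859 does not set the lower genes apart. Genes under 300 nt had medians of -1.08 and -1.0 in the same 2 strains. RPL41B was at -3.69 and -3.53, TDH3 at 0.87 and 0.75 and OLE1 at -1.33 and -1.21. In a test of the difference from WT, no gene passed in the libraries labelled R28P-30A and 1 did in R28P-30B. That gene was RPL7B, at -0.27 in WT and 0.69 in R28P-30B, where its level in total extract was 3250 to 3470 CPM.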

How the data were processed

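The authors enriched poly(A) RNA, built directional libraries from RNA fragmented to about 200 nt, aligned reads to R64 with STAR, retained every mapping position of multi-mapping reads, and assigned them to genes with featureCounts (strand setting not given in the sources used here). The deposited CPM table has 18 libraries, and 100% of values lay within 0.05 of a whole read, so reads were recovered for count tests. The deposited TPM table was not used, since it has no WT total replicate 2. Log2 ratios per culture (pseudocount 0.5 CPM) were fitted for 3 strains with limma 3.58.1 (trend, R 4.3.3, 3 residual degrees of freedom), and the WT mean was tested. Fractions were paired by culture, as the labels name the culture. Replicate differences of total and heavy correlated at 0.131 in WT cultures and at 0.02 to 0.092 in the others. The spread behind each SE and p-value was pooled over the 3 strains and moderated across genes (prior degrees of freedom 9.08). For a single gene it can be narrower than the spread of its 2 WT cultures. With only 2 WT cultures, p-values do not cover how other cultures might differ. A ratio of CPM cannot tell less RNA in the fraction from more of other RNAs.

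Genes, lists and tests were chosen with earlier results of these data known. Named genes were, per direction, up to 12 with the largest ratios past the 2-fold limit (at least 20 CPM, same sign in both cultures, and a gene name other than the identifier, which leaves out non-coding RNAs), the 5 most abundant called, the ends of each list, and the members of the lists of model genes, upstream ORFs and localised mRNAs; others are marked. Coordinates and sequences are from RefSeq's R64 annotation, which matched 6169 of 7126 genes. Tested on simulated counts of 5497 genes, limma recovered 100% of 100 genes changed by log2 1 and 93% of 100 changed by 0.5, and called 0.26% of the others. In the simulation as many genes rose as fell, and the others were equal in heavy and total. It held no shift of scale as in the data, so the 0.26% does not cover calls that rest on the scale. Alternatives were other pseudocounts, minimums and scalings, no replicate block, no trend, other sample sets, edgeR 4.0.16 and DESeq2 1.42.0 on recovered reads, and leaving out each culture. Python 3.11.15, pandas 2.3.3, numpy 2.4.6 and matplotlib 3.10.9 did the rest.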

Additional observations from a re-analysis of the deposited data

Results flagged for a closer look

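The log2 heavy/total ratio of RPL7B was higher in R28P-30B than in WT by 0.955 in the limma test of the difference between strains. In R28P-30B the RPL7B reads come with a plasmid copy of its cDNA behind the RPS28A promoter, so the values compare transcripts with different leaders. What part this had in the difference was not tested. Groups of 2 cultures are too small to look for samples that stand apart.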

How the results depend on the processing

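Scaling moved the split of calls most. Higher and lower genes numbered 1552 and 1652 centred on the median gene, 1512 and 1701 with TMM scaling, 1515 and 1707 with edgeR and 1269 and 1360 with DESeq2, both with a replicate block, against 674 and 2866. The median of all genes moved to about 0 under each of these. Genes higher and lower by 2-fold numbered 24 and 181 (centred), 21 and 183 (TMM), 22 (edgeR, higher) and 25 and 190 (DESeq2), against 4 and 287. All 674 higher genes stayed higher when centred. Without the replicate block (fractions not paired) 660 were higher and 2812 lower, within 1.5 times the paired counts. Leaving out either WT culture, with the lone culture assumed to vary like those of the other strains, gave 439 to 465 higher genes, 2109 to 2189 lower, and 2 to 6 higher and 282 to 308 lower by 2-fold. Other pseudocounts, minimums, trends and sample sets kept the counts of higher and lower genes within 1.5 times, with 5 in place of 4 higher by 2-fold without a minimum.

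Length medians follow, relative to the median of all genes. At a minimum of 20 CPM they were -0.90 under 300 nt (from -0.82), -0.11 for 300 to under 600 nt (from -0.16), 0.0595 for 2400 to under 3600 nt (from 0.0756) and 0.0969 for the longest (from 0.11). That of 1200 to under 2400 nt turned from 0.0047 to -0.0038. Without ribosomal protein genes they were -0.76, -0.18, 0.0011 and 0.0059 in the 4 shortest bins. With either WT culture left out they were -0.147 to -0.134 for 300 to under 600 nt, 0.00998 to 0.0164 for 600 to under 1200 nt, 0.00382 to 0.00491 for 1200 to under 2400 nt and 0.122 to 0.124 for the longest.

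Of 86 named genes, SCH9, not called at -0.01, was called at 0.18 once centred, and was the 1 that turned direction with a call. TIF4631, YAP1, WSC2 and ICR1, called on neither scale, also went from below 0 to above it once centred. Of 1373 values under the alternatives 85 lost a call and 25 gained one, and 53 of the 75 called genes kept theirs throughout. RNA polymerase subunits lay at 0.0779 relative to the median of all genes, at -0.00861 without WT replicate 2 and at 0.0768 without WT replicate 1. Without replicate 2, plasma membrane transporters went from 0.0241 to -0.00617, the respiratory chain from 0.0809 to 0.031, ribosomal proteins from 0.0852 to 0.0388 and localised or repressed mRNAs from -0.163 to -0.0755, and without replicate 1 ribosomal proteins went to 0.137. The cause of these changes was not tested. Depth, at 0.0349 to 0.0484 CPM for 1 read, limits the genes of lowest level.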
